A study of Mus musculus with 6 samples.

Results

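Chemokines are small secreted proteins that guide leukocytes through tissue, and dermal fibroblasts are one of their sources in skin. The genes described here are 10 chemokine genes named for dermal fibroblasts, chosen by name out of the 43629 genes in the deposited tables. They are Cxcl1, Cxcl5, Cxcl10, Cxcl12, Cxcl14, Cx3cl1, Ccl2, Ccl7, Ccl8 and Ccl11. RNA was sequenced from cultured primary fibroblasts of newborn mouse skin after 6 days of growth (passage 1). The 3 caNrf2 libraries came from mice with Col1a2Cre and caNrf2. That transgene encodes an Nrf2 that is always active; Nrf2 is a transcription factor of antioxidant and detoxification genes. The 3 ctrl libraries came from mice with Col1a2Cre alone. Both groups therefore carried Cre, under a promoter active in fibroblasts, on the same mixed background of 50% C57Bl/6 and 50% FVB/N. The study used 3 mice per genotype, and each library was taken as 1 mouse, so the p-values measure the spread between these cultures.

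Library totals lay between 30168400 and 45164208 expected counts, so 1 read was worth 0.0221 to 0.0331 CPM, the count scaled to the size of the library. A count of 0 allows up to 3 counts, or 0.0664 to 0.0994 CPM, counting error only. Nfe2l2, the gene of Nrf2, averaged 380 ± 43.2 CPM in caNrf2 and 109 ± 5.87 CPM in ctrl (SD, n = 3 each), and the groups lay apart. Of the 9 fibroblast markers examined, none was absent. Pdgfra (fold 1.33) and Thy1 (1.32) were called higher in caNrf2, and Col1a1 (0.68), Col1a2 (0.617), Col3a1 (0.505) and Pdgfrb (0.732) lower; Dcn, Lum and Vim were not called. The 9 markers summed to 27700 to 32800 CPM in caNrf2 libraries and 37400 to 53500 CPM in ctrl libraries. Markers of macrophages and other leukocytes were present at low levels and were higher in caNrf2. Of these, 14 of 16 tested markers were called higher, against 12.5% of all tested genes. Their summed level was 168 to 203 CPM in caNrf2 libraries and 23.6 to 66.9 CPM in ctrl libraries. In such bulk RNA, fewer cells of a type and less RNA per cell cannot be told apart. Cd163, a marker of some macrophages, was near 0 in both groups. Of 5 mast cell markers, 4 were at 0 in all libraries.

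Chemokines are classed by the spacing of their first cysteines. In CXC chemokines 1 residue lies between them, in CC chemokines they are adjacent, and in the CX3C chemokine 3 residues part them. CXC chemokines that carry glutamate, leucine and arginine just before the cysteines act on CXCR2 and draw neutrophils. The CC chemokines of the list act on receptors of monocytes, eosinophils and T cells. The coding bases around these cysteines are shown because they divide the genes into the classes that order the results, with the cysteine codons in capitals (GENCODE M21 transcripts, coding strand).
Cxcl1: aatgagctgcgcTGTcagTGCctgcag
Cxcl5: acggagctgcgtTGTgttTGCttaacc
Cxcl12: ctgagctaccgaTGCcccTGCcggttc
Cx3cl1: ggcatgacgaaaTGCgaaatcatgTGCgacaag
Ccl2: gccccactcaccTGCTGCtactca
Ccl7: aatgcatccacaTGCTGCtatgtc
In Cxcl1 and Cxcl5 the 3 codons before the first capital codon are gagctgcgc and gagctgcgt, which encode glutamate, leucine and arginine. Cxcl10, Cxcl12 and Cxcl14 lack these residues there. Cx3cl1, whose protein is anchored in the membrane by a mucin-like stalk, has 395 codons, against 89 for the main transcript of Cxcl12 and 97 for Ccl7.

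The sequences bear on how well reads could be assigned. Among the coding sequences of the 10 genes the closest pair was Ccl7 and Ccl11, at 66.3% identity over a global alignment. Stretches of 50 bases were compared with all GENCODE M21 transcripts on both strands, and 8 of the 10 genes shared none with another gene. Cxcl5 shared 13 of its 1492 stretches (0.871%). Cxcl10 shared 84 of 1604 (5.24%), all of them with Art3, a gene that overlaps its locus. The strand setting of the counting is not given in the sources used here, so reads of Cxcl10 and Art3 could not be told apart there.

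Levels were first compared between genes per length, as TPM (transcript abundance corrected for length) summed over the transcripts of each gene. The 10 genes summed to 1590 to 1720 TPM in caNrf2 libraries and 1720 to 1850 TPM in ctrl libraries. Ccl2, Cxcl5, Ccl7 and Cxcl12 held 90.7 to 91.7% of that sum in caNrf2 and 93.0 to 93.9% in ctrl. Ccl2, which attracts monocytes through CCR2, was the most abundant in both groups, at 688 ± 100 TPM in caNrf2 and 777 ± 44.8 TPM in ctrl (SD, n = 3 each). In caNrf2 it was followed by Cxcl5 (380 ± 38.6 TPM), Ccl7 (295 ± 7.87 TPM), Cxcl12 (156 ± 25.2 TPM) and Cxcl1 (91.5 ± 16.1 TPM), with library ranges that did not overlap between neighbours. In ctrl the order was Ccl7 (416 ± 15.5 TPM), Cxcl5 (252 ± 46.4 TPM), Cxcl12 (225 ± 31 TPM) and Cxcl1 (67.1 ± 4.65 TPM), and the ranges of Cxcl5 and Cxcl12 overlapped. Cxcl5 thus stood above Ccl7 in every caNrf2 library and below it in every ctrl library. The TPM of Cxcl5 was 1.16, 1.44 and 1.26 times that of Ccl7 in caNrf2 libraries 1 to 3, against 0.546, 0.543 and 0.725 times in ctrl libraries 1 to 3.

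The other 5 genes were scarcer, with at most 25.1 TPM in any library. In caNrf2, Cxcl14 (19.3 ± 1.8 TPM) and Ccl11 (17 ± 2.48 TPM) overlapped, followed by Cx3cl1 (11.3 ± 1.29 TPM) and Ccl8 (6.62 ± 2.51 TPM). In ctrl, Ccl11 (19.6 ± 5.02 TPM) stood above Cxcl14 (13.9 ± 0.625 TPM), whose range overlapped that of Ccl8 (10.2 ± 3.75 TPM), which in turn overlapped Cx3cl1 (5.79 ± 1.28 TPM). Cxcl10 was last in both groups, at 0.403 ± 0.151 TPM in caNrf2 and 0.943 ± 0.473 TPM in ctrl. From the posterior mean estimates its levels were 0.69 TPM in caNrf2 and 1.24 TPM in ctrl.

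**Figure D1:**
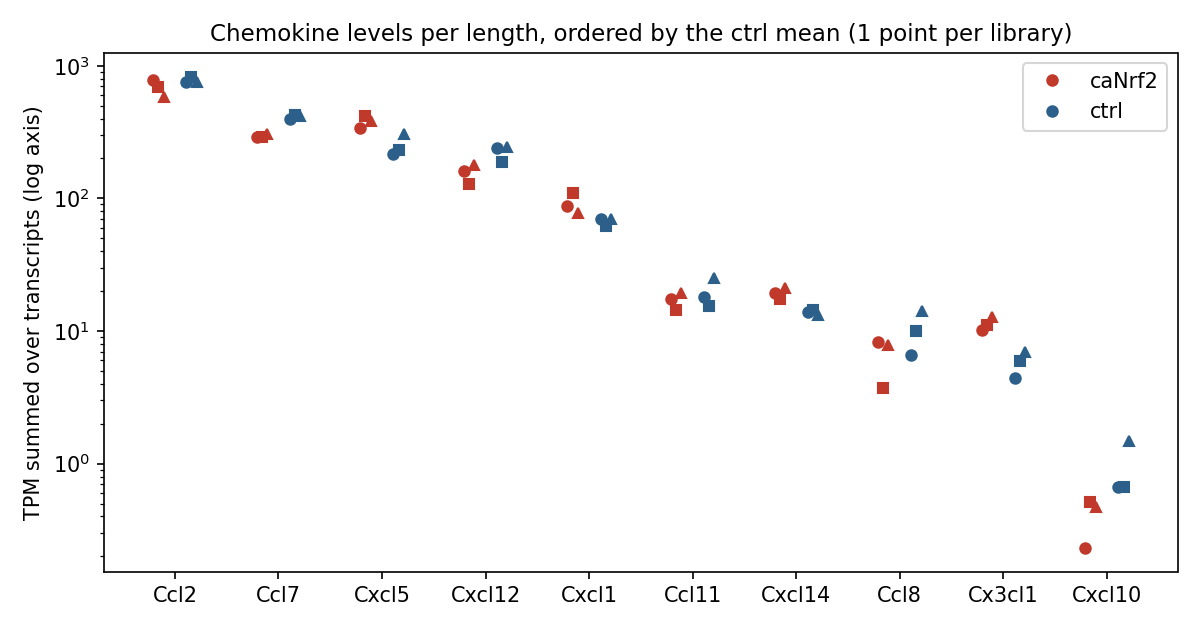
Levels per length of the 10 chemokine genes, as TPM summed over transcripts on a log axis, ordered by the ctrl mean. Red points are caNrf2 libraries and blue points ctrl libraries, with a circle, square and triangle for replicates 1, 2 and 3; Cxcl5 lies above Ccl7 in caNrf2 and below it in ctrl.

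Between genotypes the 10 genes went both ways. Cx3cl1, Cxcl5, Cxcl1 and Cxcl14 rose in caNrf2 cultures, Ccl7 fell, and Ccl2, Ccl8, Ccl11, Cxcl10 and Cxcl12 did not pass the test. A gene is said here to be called when its edgeR p, adjusted over the 15341 genes tested, was under 0.05. All 10 genes were tested, 4 were called higher and 1 lower, where 21.5% of all tested genes were called, 12.5% higher and 9.03% lower. The CPM ranges of the groups lay apart for 6 of the 10 genes, with caNrf2 above in 4 and below in 2. Those below were Ccl7 and Cxcl10, the latter near the floor of detection. Among all tested genes they lay apart for 42.1%, with caNrf2 above for 22% and below for 20.1%. The median log2 fold change of the 10 genes was -0.12, and that of all tested genes -0.003.

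Cx3cl1 (ENSMUSG00000031778, chromosome 8, 94772009 to 94782423, plus strand, GRCm38) encodes fractalkine, the ligand of CX3CR1 on monocytes and other leukocytes, and had the highest fold change of the 10. It had 18.9, 19.6 and 22.4 CPM in caNrf2 libraries 1 to 3, against 7.5, 10.2 and 12.1 CPM in ctrl libraries 1 to 3. The groups did not overlap, and ctrl replicate 3 was the nearest to the caNrf2 libraries. The fold was 2.05 (95% interval 1.58 to 2.64), or 1.03 ± 0.16 (SE) on the log2 scale (edgeR adjusted p = 0.0025). Its reads were assigned to the long coding transcript Cx3cl1-201 for at least 99.1% of its expected counts in each library.

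Both neutrophil-attracting genes of the list rose. Cxcl5 (ENSMUSG00000029371, chromosome 5, 90759299 to 90761625, plus strand) had 316, 353 and 327 CPM in caNrf2 libraries 1 to 3, against 184, 195 and 255 CPM in ctrl libraries 1 to 3. The groups lay apart, and ctrl replicate 3 stood above the other two. The fold of Cxcl5 was 1.57 (1.29 to 1.92), or 0.65 ± 0.13 (SE) on the log2 scale (adjusted p = 0.00725). Cxcl1 (ENSMUSG00000029380, chromosome 5, 90891241 to 90893115, plus strand) had 44.6, 50.3 and 35.9 CPM in caNrf2 libraries 1 to 3, against 32.2, 28.2 and 31.6 CPM in ctrl libraries 1 to 3. The groups of Cxcl1 lay apart, though caNrf2 replicate 3 was near the highest ctrl library. Its fold was 1.42 (1.17 to 1.72; log2 fold change 0.51, SE 0.12, adjusted p = 0.0195). That call was lost when 1 of 4 libraries was left out: the adjusted p was 0.0557 without caNrf2 replicate 1, 0.0655 without caNrf2 replicate 2, 0.0664 without ctrl replicate 2 and 0.0502 without ctrl replicate 3. The log2 fold changes of these fits were 0.49, 0.38, 0.45 and 0.53.

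Cxcl14 (ENSMUSG00000021508, chromosome 13, 56288647 to 56296551, minus strand), a chemokine made constitutively in skin, had 19.9, 16.4 and 19.9 CPM in caNrf2 libraries 1 to 3, against 13.1, 13.5 and 12.3 CPM in ctrl libraries 1 to 3. All 3 caNrf2 libraries were above all 3 ctrl libraries, and the ctrl libraries lay close together. The fold was 1.44 (1.23 to 1.69; log2 fold change 0.53, SE 0.10, adjusted p = 0.00716).

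**Figure D2:**
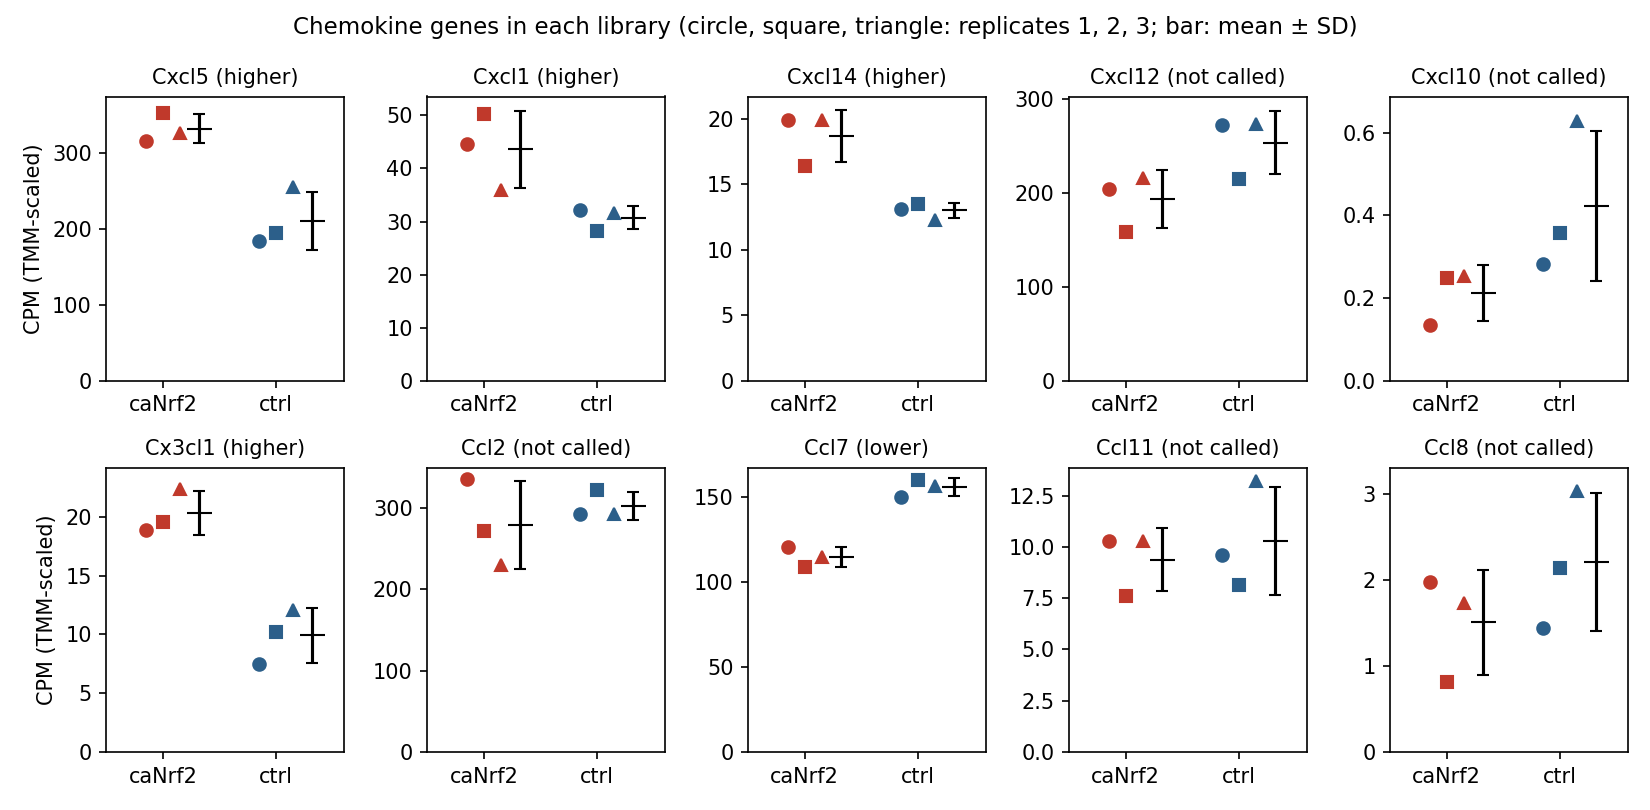
CPM of the 10 chemokine genes in each library, with TMM-scaled library sizes; red points are caNrf2 and blue points ctrl, and the black mark beside each group is its mean ± SD (n = 3). The groups lie apart in Cxcl5, Cxcl1, Cxcl14, Cx3cl1, Ccl7 and Cxcl10 and overlap in Cxcl12, Ccl2, Ccl11 and Ccl8.

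The 4 CC chemokine genes lie together on chromosome 11, within 81.2 kb (82035571 to 82116799, GRCm38), in the order Ccl2, Ccl7, Ccl11 and Ccl8, with Ccl12, which was not tested, between the last pair. Ccl7 (ENSMUSG00000035373, 82045712 to 82047525, plus strand), whose product attracts monocytes and shares CCR2 with that of Ccl2, was called, and the other 3 were not. It had 121, 109 and 115 CPM in caNrf2 libraries 1 to 3, against 150, 160 and 157 CPM in ctrl libraries 1 to 3. The groups did not overlap, and the libraries of each group lay close together. The fold was 0.741 (0.657 to 0.835; log2 fold change -0.43, SE 0.08, adjusted p = 0.00441).

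Ccl2, the neighbour of Ccl7, had 336, 272 and 230 CPM in caNrf2 libraries 1 to 3, against 293, 322 and 292 CPM in ctrl libraries 1 to 3. The caNrf2 libraries lay on both sides of the ctrl libraries, and the fold was 0.925 (0.749 to 1.14, adjusted p = 0.583). The TPM of Ccl7 was 0.373, 0.415 and 0.521 times that of Ccl2 in caNrf2 libraries 1 to 3, against 0.532, 0.517 and 0.557 times in ctrl libraries 1 to 3. The ratios overlapped narrowly, through caNrf2 replicate 3 and ctrl replicate 2. Whether Ccl2 and Ccl7 differed in their response was not tested.

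Ccl11, which encodes eotaxin, the ligand of CCR3 that draws eosinophils, had 10.3, 7.62 and 10.3 CPM in caNrf2 libraries 1 to 3, against 9.59, 8.13 and 13.2 CPM in ctrl libraries 1 to 3. The groups overlapped, and the fold was 0.913 (0.674 to 1.24, adjusted p = 0.665). Ccl8, in mice a ligand of CCR8, was scarce, at 1.98, 0.812 and 1.73 CPM in caNrf2 libraries 1 to 3, against 1.44, 2.14 and 3.04 CPM in ctrl libraries 1 to 3. Its fold of 0.682 had a wide interval (0.382 to 1.22, adjusted p = 0.319). All 4 CC genes of the list had log2 fold changes below 0 under each scaling tried, while 49.6% of all tested genes were above 0. That of Ccl2 was 0.003 without caNrf2 replicate 3, and that of Ccl11 was 0.08 without ctrl replicate 3. The untested Ccl12 went the other way near the floor of detection. It had 0.162, 0.248 and 0.207 CPM in caNrf2 libraries 1 to 3, against 0.0564, 0.0447 and 0.0992 CPM in ctrl libraries 1 to 3.

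A CXC cluster lies on chromosome 5 within 146.6 kb (90759299 to 90905909, GRCm38) and holds Cxcl5, Ppbp, Pf4, Cxcl3, Cxcl15, Cxcl1 and Cxcl2. Apart from Cxcl15, all of them were tested, and the 6 had log2 fold changes above 0, under each scaling too, between 0.42 for Cxcl3 and 2.10 for Pf4. Of all tested genes, 49.6% had a log2 fold change above 0. Pf4, at 0.0661 to 0.197 CPM in ctrl, passed the filter on low counts only through its caNrf2 libraries. Cxcl15 had 0 CPM in caNrf2 and at most 0.0564 CPM in ctrl libraries. Cxcl5, Cxcl1 and Pf4 were called. Cxcl2 and Cxcl3, whose products also act on CXCR2, were far scarcer than Cxcl1 in CPM. Cxcl2 had 1, 2.07 and 1.24 CPM in caNrf2 libraries 1 to 3, against 0.254, 0.848 and 1.65 CPM in ctrl libraries 1 to 3, and its groups overlapped (adjusted p = 0.398). Cxcl3 averaged 1.24 ± 0.202 CPM in caNrf2 and 0.922 ± 0.24 CPM in ctrl (SD, n = 3 each; adjusted p = 0.294).

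Cxcl12 (ENSMUSG00000061353, chromosome 6, 117168535 to 117181367) encodes a chemokine that holds CXCR4-bearing cells in tissues and is also bound by ACKR3. It had 204, 158 and 216 CPM in caNrf2 libraries 1 to 3, against 272, 214 and 273 CPM in ctrl libraries 1 to 3. The highest caNrf2 library lay just above the lowest ctrl library, while as TPM the groups lay apart (129 to 179 TPM in caNrf2, 189 to 245 TPM in ctrl). The fold was 0.761 (0.61 to 0.95; log2 fold change -0.39, SE 0.14), and the gene was not called (adjusted p = 0.079). It was called lower in 4 of 16 alternatives, among them with DESeq2 (adjusted p = 0.0238), without a filter on low counts (adjusted p = 0.0361) and when ctrl replicate 2 was left out (-0.50 on the log2 scale, adjusted p = 0.0405). Over all 16 alternatives its log2 fold change was between -0.50 and -0.28 and its adjusted p between 0.0109 and 0.204.

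The tables hold 4 transcripts of Cxcl12, of which 3 are coding and share their first 267 coding bases. Cxcl12-202 has 89 codons, Cxcl12-203 adds 4 codons and Cxcl12-201 adds 30. The ends of their coding sequences are shown because the transcripts are told apart by what follows the shared part, with the added bases in capitals (chromosome 6, GENCODE M21, coding strand, stop codon left out).
Cxcl12-202: aaagctttaaacaag
Cxcl12-203: aaagctttaaacaagAGGCTCAAGATG
Cxcl12-201: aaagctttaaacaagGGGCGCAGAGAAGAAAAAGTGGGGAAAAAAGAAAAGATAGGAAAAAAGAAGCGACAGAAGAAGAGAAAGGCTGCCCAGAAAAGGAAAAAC
The tail of Cxcl12-201 is rich in codons for lysine and arginine, the stretch by which this isoform is known to bind heparan sulfate.

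Cxcl12-202, the main transcript, had 124, 91.4 and 131 TPM in caNrf2 libraries 1 to 3, against 194, 151 and 200 TPM in ctrl libraries 1 to 3. Its groups lay apart. Cxcl12-203 had 29.9, 28.7 and 39 TPM in caNrf2 libraries 1 to 3, against 32, 28.3 and 33.9 TPM in ctrl libraries 1 to 3, and its groups overlapped. The share of the gene's expected counts assigned to Cxcl12-203 was 26.7, 30.2 and 30.1% in caNrf2 libraries 1 to 3, against 19.5, 21.7 and 20.3% in ctrl libraries 1 to 3. Cxcl12-201 held 6.8 to 9.7% in all libraries.

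This difference in shares was not called. By the edgeR test of transcript usage, 0 of the 2 genes of the list with several tested transcripts, Cxcl12 and Ccl2, were called, and 0 had an unadjusted p under 0.05. The share of genes called by that test was 0.801% of 7992. The p of Cxcl12 was 0.0649 before adjustment and 1 after it. Of their 6 transcripts, 1 had an unadjusted edgeR p under 0.05, Cxcl12-203, with a log2 fold change of 0.35 against the rest of the gene. Its p was 0.0162 before adjustment and 1 after it. Ccl2 had a retained-intron transcript, Ccl2-202, which held 5.62 to 6.06% of its counts in caNrf2 and 6.25 to 7% in ctrl libraries. Against the rest of Ccl2, its log2 fold change was -0.15, with a p of 1 after adjustment.

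**Figure D3:**
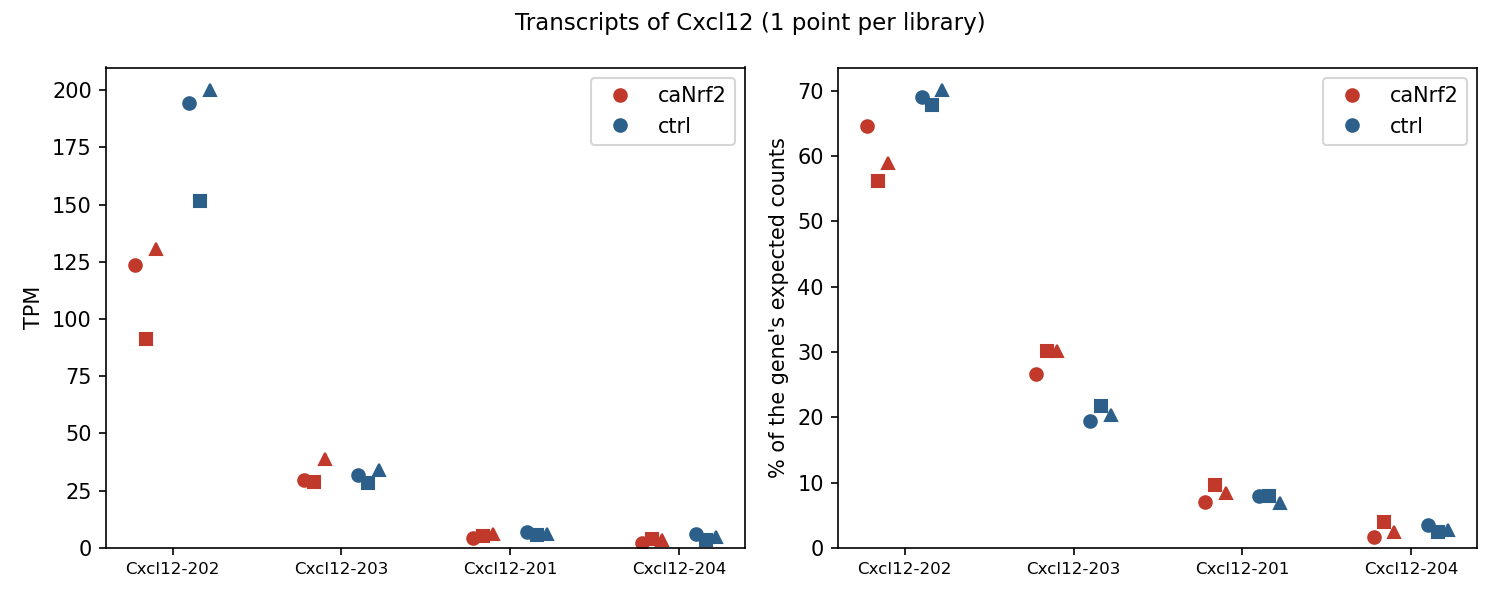
TPM (left) and share of the gene's expected counts (right) of the 4 Cxcl12 transcripts in each library; red points are caNrf2 and blue points ctrl, with a circle, square and triangle for replicates 1, 2 and 3. Cxcl12-202 is lower in every caNrf2 library than in every ctrl library, at 91.4 to 131 TPM against 151 to 200 TPM, while the TPM of Cxcl12-203 overlaps.

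Cxcl10 (ENSMUSG00000034855, chromosome 5, 92346638 to 92348889, minus strand), the interferon-induced ligand of CXCR3 on T cells, was near the floor of detection. It had 5, 11 and 11 counts in caNrf2 libraries 1 to 3, against 10, 16 and 19 counts in ctrl libraries 1 to 3. As CPM, these were 0.135, 0.248 and 0.253 in caNrf2 libraries and 0.282, 0.357 and 0.628 in ctrl libraries, so the groups lay apart, with caNrf2 below. The fold was 0.523 with a wide interval (0.271 to 1.01), and the gene was not called (log2 fold change -0.93, SE 0.42, adjusted p = 0.149). The stretches shared with Art3 limit it further. Cxcl10 passed the filter on low counts only through its ctrl libraries, so its direction was partly set by the filter. The other ligands of CXCR3, Cxcl9 and Cxcl11, were at most 0.134 CPM and were not tested.

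Genes that interferon induces were lower in the same cultures. Of 14 such genes 12 were tested, of which 9 were called lower and 1 higher, with a median log2 fold change of -0.89. Among all tested genes, 9.03% were called lower and 12.5% higher. Usp18, among those called lower, passed the filter on low counts only through its ctrl libraries. Stat2, a transducer of the interferon signal, averaged 27.5 ± 3.4 CPM in caNrf2 and 51 ± 4.51 CPM in ctrl (SD, n = 3 each; adjusted p = 0.00063). Ifit1, an interferon-induced antiviral gene, averaged 0.587 ± 0.223 CPM in caNrf2 and 2.1 ± 0.529 CPM in ctrl (adjusted p = 0.00483). Gbp2 was the gene called higher (fold 2.22, adjusted p = 0.000803). The part of interferon signalling in the level of Cxcl10 was not tested.

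NF-kappaB, the factor that induces many chemokine genes in inflammation, also induces its own subunits and inhibitors, the survival gene Birc3 and the adhesion gene Icam1. Of 11 NF-kappaB-induced genes of these kinds tested, 2 were called higher, 1 lower and 8 were not called. Among all tested genes, 12.5% were called higher and 9.03% lower. The median log2 fold change of the 11 was -0.04. Their CPM ranges lay apart with caNrf2 above in 3 and below in 5. Among all tested genes this held for 22% and 20.1%. Tnfaip3, a feedback inhibitor, averaged 17.6 ± 2.13 CPM in caNrf2 and 10.7 ± 2.26 CPM in ctrl (SD, n = 3 each; adjusted p = 0.0123), and Bcl3 rose 1.48-fold (adjusted p = 0.0106). Icam1, an adhesion molecule for leukocytes, fell to 18.3 ± 1.23 CPM in caNrf2, against 29.1 ± 2.47 CPM in ctrl (adjusted p = 0.00125). Nfkbia, the inhibitor IkappaB-alpha, averaged 26.5 ± 0.865 CPM in caNrf2 and 23.1 ± 2.04 CPM in ctrl and was not called (adjusted p = 0.14). Nfkb2, Rel, Relb and Birc3, also not called, had folds of 0.89, 0.821, 0.839 and 0.866, with caNrf2 ranges below ctrl.

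Promoters from RefSeq (GRCm38.p6), 250 bases before to 50 bases after the start site, were at hand for 6 of the 10 genes, Cxcl1, Cxcl10, Cxcl12, Cxcl14, Cx3cl1 and Ccl8. They were searched on both strands for 4 motifs: the kappaB consensus, TGACNNNGC (the core of the antioxidant response element that Nrf2 binds), TGANTCA (the AP-1 site) and TATAAA. The kappaB consensus was found in 2 of them, Cxcl1 and Cxcl10, and in 8.46% of all 32851 promoters in the table. TGACNNNGC was found in Cxcl10 and in 12.4% of all promoters, at bases that overlap a TGANTCA match, a motif in 7.81% of all. TATAAA was found in Cx3cl1 and Ccl8 and in 13.6% of all. The stretches with the kappaB consensus are shown because the same motif stands before a gene that was called higher and a gene that was not called, with the matching bases in capitals.
Cxcl1, chr5:90891145-90891214, plus strand: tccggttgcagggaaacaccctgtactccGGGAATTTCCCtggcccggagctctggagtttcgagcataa
Cxcl10, chr5:92348950-92349059, minus strand: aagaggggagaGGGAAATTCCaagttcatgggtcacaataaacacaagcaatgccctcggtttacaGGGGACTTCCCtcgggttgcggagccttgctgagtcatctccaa
The capitals begin 71 bases before the start site in Cxcl1, and 159 and 104 bases before it in Cxcl10. In Cxcl1, and at the second place in Cxcl10, 2 matches overlap. A match describes the letters and shows no binding.

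Beyond the 10 genes, chemokines and receptors that were called all rose, and most were scarce. Of 28 other chemokine genes, 12 were tested and 4 were called, all higher: Ccl9, Ccl6, Ccl3 and Pf4. Of all tested genes, 12.5% were called higher and 9.03% lower. At their ctrl levels Ccl3, Pf4 and Ccl6 passed the filter on low counts only through their caNrf2 libraries. Their direction was therefore partly set by the filter. Ccl9, a monocyte-attracting chemokine of rodents, averaged 8.55 ± 1.02 CPM in caNrf2 and 4.75 ± 0.623 CPM in ctrl (SD, n = 3 each; fold 1.79, adjusted p = 0.00424). Ccl6, a related rodent gene, averaged 1.5 ± 0.0883 CPM in caNrf2 and 0.411 ± 0.267 CPM in ctrl (adjusted p = 0.0145). Ccl3, which macrophages release, averaged 0.606 ± 0.135 CPM in caNrf2 and 0.148 ± 0.0878 CPM in ctrl (adjusted p = 0.0113). Pf4, made by platelets and some macrophages, averaged 0.631 ± 0.189 CPM in caNrf2 and 0.14 ± 0.0671 CPM in ctrl (adjusted p = 0.00869). Their median log2 fold change over the 12 tested was 0.61.

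Of 18 chemokine receptor genes 5 were tested, and Cx3cr1 and Cxcr4 were called higher, where 12.5% of all tested genes were. Cx3cr1, the receptor of fractalkine, had 1, 1.35 and 0.783 CPM in caNrf2 libraries 1 to 3, against 0.197, 0.313 and 0.397 CPM in ctrl libraries 1 to 3. Its groups lay apart (fold 3.47, adjusted p = 0.00666), as did those of its ligand Cx3cl1. Cx3cr1 too passed the filter on low counts only through its caNrf2 libraries, so its direction was partly set by the filter. Cxcr4, the receptor of the Cxcl12 product, averaged 1.17 ± 0.325 CPM in caNrf2 and 0.417 ± 0.0301 CPM in ctrl (SD, n = 3 each; fold 2.78, adjusted p = 0.00722). The receptor genes Ccr2, Ccr3 and Cxcr3 were at most 0.0812 CPM in any library and were not tested.

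The called chemokines and receptors were higher in caNrf2, as were the leukocyte markers. Within ctrl, replicate 1 had the lowest summed leukocyte level and the lowest Ccl3, Ccl6 and Cx3cr1. Ccl9 was lowest in replicate 3, at 4.62, 5.43 and 4.2 CPM in ctrl libraries 1 to 3. The receptor gene Ackr4, also called higher, was lowest there too, at 0.507, 0.402 and 0.331 CPM. Pf4 had 0.197, 0.156 and 0.0661 CPM in ctrl libraries 1 to 3, and Cxcr4 had 0.451, 0.402 and 0.397 CPM. Pf4 and Ccl3 were near the floor of detection in ctrl, and Cxcr4 hardly differed between the ctrl libraries, so their order there says little. Ptprc, the common leukocyte antigen, averaged 2.67 ± 0.184 CPM in caNrf2 and 0.594 ± 0.217 CPM in ctrl (SD, n = 3 each; fold 4.41, adjusted p = 0.00077), and C1qa, a complement gene of macrophages, rose 4.84-fold (adjusted p = 0.000788). The part of these cells in the levels of the chemokine and receptor genes was not tested. Among the 16 tested leukocyte markers the median log2 fold change was 1.89. The log2 fold changes of Cx3cl1, Cxcl5, Cxcl14 and Cxcl1 were 1.03, 0.65, 0.53 and 0.51. In bulk RNA such values do not tell which cells held the transcripts. The summed leukocyte markers were lowest in ctrl replicate 1, at 23.6 CPM. Cxcl5, Cx3cl1, Ccl7, Ccl8 and Cxcl10 were also lowest there among the ctrl libraries. Cxcl12, Ccl2, Ccl11, Cxcl1 and Cxcl14 were not. The ctrl libraries 1 to 3 lay close together for Cxcl1 (32.2, 28.2 and 31.6 CPM) and Cxcl14 (13.1, 13.5 and 12.3 CPM).

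Atypical receptors bind chemokines and remove them without the usual signal. Ackr3, which takes up the Cxcl12 product, was the most abundant of them, at 60.2, 47.4 and 51.6 CPM in caNrf2 libraries 1 to 3, against 46.5, 42.9 and 36.6 CPM in ctrl libraries 1 to 3. The groups lay apart, but the gene was not called (fold 1.26, adjusted p = 0.0685). Ackr4 was called higher, at 2, 1.51 and 1.38 CPM in caNrf2 libraries 1 to 3, against 0.507, 0.402 and 0.331 CPM in ctrl libraries 1 to 3 (fold 3.9, adjusted p = 0.00126). Of its known ligands, those of Ccl19 and Ccl21a had 0 counts in all 6 libraries, while Ccl25 averaged 2.2 ± 0.293 CPM in caNrf2 and 1.96 ± 0.189 CPM in ctrl (SD, n = 3 each; adjusted p = 0.562).

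Of 10 proteases known to cleave chemokines 9 were tested, 2 were called higher and 1 lower. Among all tested genes, 12.5% were called higher and 9.03% lower. Mmp12, an elastase of macrophages, averaged 10.8 ± 1.94 CPM in caNrf2 and 3.88 ± 1.66 CPM in ctrl (SD, n = 3 each; adjusted p = 0.0085), and Mmp9 rose 2.03-fold (adjusted p = 0.0232). Mmp14, a membrane-bound protease, fell to 496 ± 50.9 CPM in caNrf2, against 769 ± 90.2 CPM in ctrl (adjusted p = 0.00521). Mmp2, which Mmp14 activates and which truncates the Cxcl12 product, averaged 243 ± 33.9 CPM in caNrf2 and 321 ± 38.5 CPM in ctrl (adjusted p = 0.0552). Adam10 and Adam17, which release fractalkine from the membrane, were not called, at folds of 1.05 (adjusted p = 0.596) and 1.01 (adjusted p = 0.885).

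**Figure D4:**
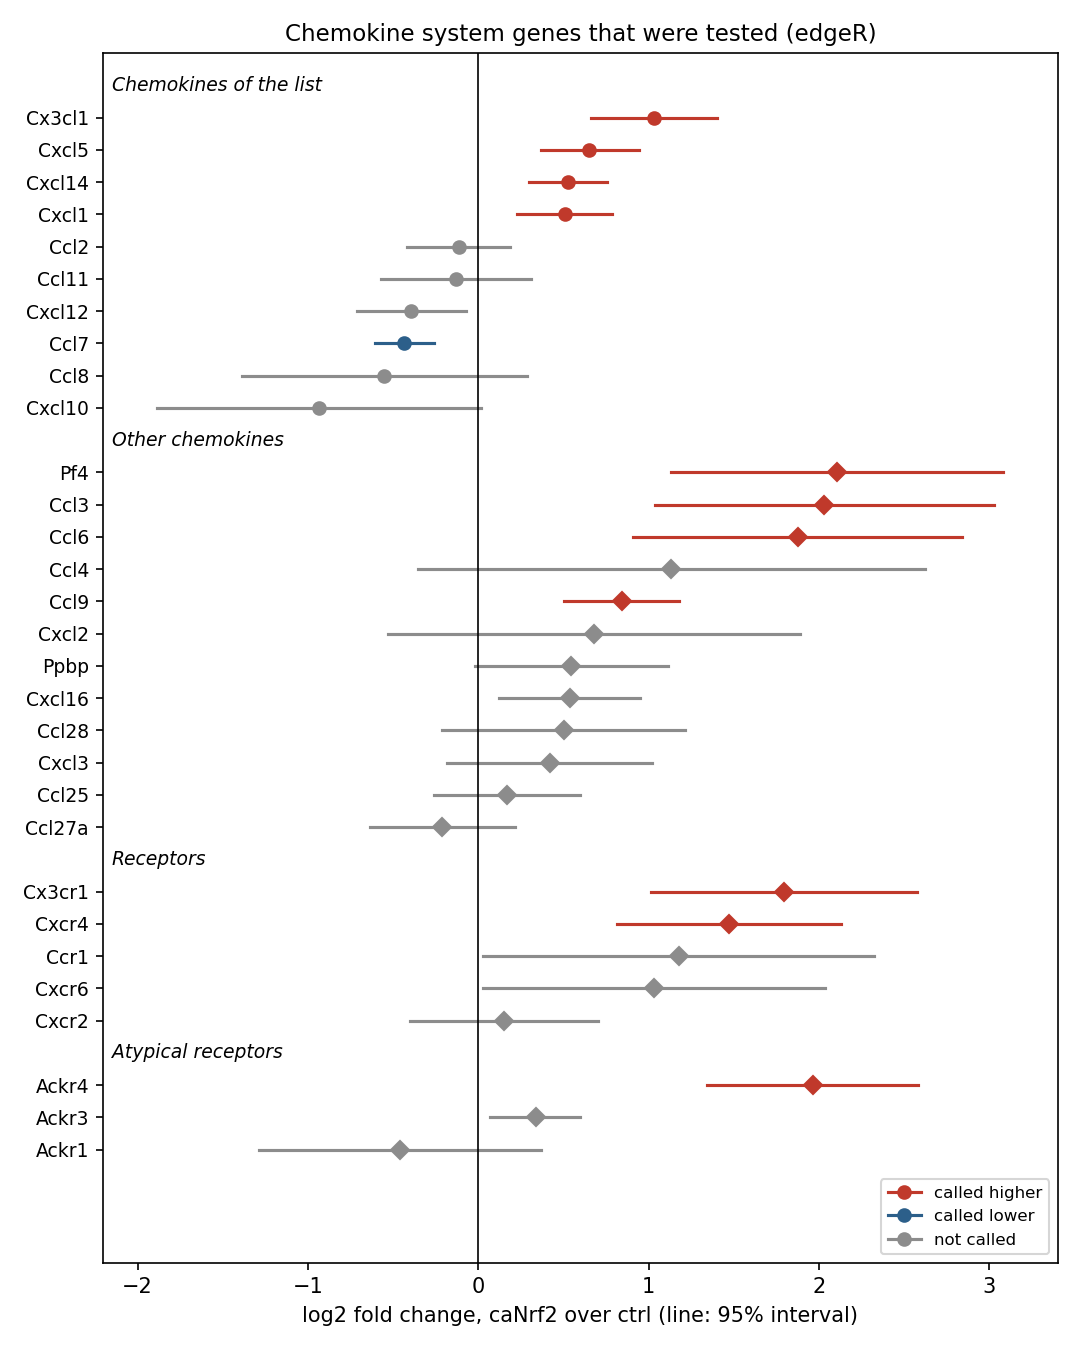
Log2 fold change of caNrf2 over ctrl with its 95% interval for the chemokine, receptor and atypical receptor genes that were tested; circles are the 10 chemokine genes of the list and diamonds the others. Red marks genes called higher, blue the gene called lower (Ccl7) and grey those not called; the values of the list run from -0.93 for Cxcl10 to 1.03 for Cx3cl1.

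Within a group the genes did not share 1 high or low library. Among caNrf2 libraries, replicate 3 was the highest for 5 of the 10 genes and replicate 2 the lowest for 5, among them Cxcl12, Cxcl14, Ccl8 and Ccl11. Among ctrl libraries, replicate 3 was the highest for 6 genes, among them Cxcl5, Cx3cl1 and Cxcl12, and replicate 1 the lowest for 5. Ccl2 was lowest in caNrf2 replicate 3 and Cxcl1 highest in caNrf2 replicate 2.

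For each gene the other gene with the most similar log2 CPM over the 6 libraries is given, as a description. For Ccl7 it was Xaf1 (Pearson r = 0.999), for Cxcl5 Trim6 (r = 0.996) and for Cx3cl1 Mocs1 (r = 0.996). For Cxcl12 it was Decr1 (r = 0.996), for Cxcl14 Cav3 (r = 0.987) and for Cxcl1 Frmd4b (r = 0.982). For Ccl8 it was Ogfod3 (r = 0.999), for Cxcl10 Ehhadh (r = 0.995), for Ccl2 Hdgfl2 (r = 0.994) and for Ccl11 Slc16a1 (r = 0.99). All points share their library and its scaling. Each r is the highest over many genes with 6 libraries in 2 groups, so high values arise easily. The number of genes above r = 0.99 was 19 for Ccl7, 8 for Cx3cl1, 6 for Cxcl5 and 0 for Cxcl1, Cxcl14 and Ccl11.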

How the data were processed

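Each library has 1 deposited table of 104129 transcripts (43629 genes). Per the file headers it holds expected counts in 2 versions, maximum likelihood and posterior mean, and also TPM and FPKM; the deposited FPKM were not used. CASAVA 1.8, RSEM 1.2.21 and GRCm38 are named in the submitters' processing notes. No aligner, annotation release or strand setting is given in the sources used here. RSEM divides reads that match several transcripts by estimated abundance, so values of single transcripts are less certain than those of genes.

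The maximum likelihood counts of all transcripts of a gene were added up and rounded. A table of gene names gave symbols for 42462 IDs. The test was that of edgeR 4.0.16, run in R 4.3.3 (filterByExpr with a minimum count of 10 and a minimum total of 15, TMM, quasi-likelihood F test, two-sided, no replicate block, Benjamini-Hochberg over all 15341 genes tested, threshold 0.05). CPM use TMM-scaled library sizes, SEs come from the F statistic, and 95% intervals from the SE and the fit's degrees of freedom. Transcript usage was tested with edgeR diffSpliceDGE and Simes p-values. Both tests were checked on simulated counts. Levels per length are the authors' TPM summed per gene. Log2 CPM for correlations used a prior count of 2. Correlations of same-numbered libraries, after group means were taken out, were 0.214, 0.209 and 0.0953, against -0.242 to 0.112 for libraries of unlike number. The numbers are only names here, and they were not treated as pairs in the main test.

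The 10 genes and all gene lists (other chemokines, receptors, atypical receptors, NF-kappaB and interferon genes, chemokine-cleaving proteases, cell type markers) were chosen with earlier results of these data known. Every listed gene past the threshold could be named, with Nfe2l2 and Nqo1 to check the labels. For each of the 10 genes, the gene with the highest Pearson correlation was named, with mean CPM no lower than 1 and leaving out clone and predicted names. Listed genes that were not called but are named were chosen after their values were seen. Nqo1 averaged 661 ± 78.6 CPM in caNrf2 and 26.1 ± 3.09 CPM in ctrl (SD, n = 3 each). T cell, endothelial, keratinocyte and skeletal muscle markers had 0 of 1, 1 of 7, 1 of 5 and 5 of 7 tested genes called higher and none lower. Their summed levels were 0.406 to 0.714, 9.96 to 12, 201 to 316 and 132 to 167 CPM in caNrf2, against 0.761 to 0.893, 8.23 to 11.2, 133 to 213 and 88 to 96.3 CPM in ctrl, in the same order. Among the 9 fibroblast markers 2 were called higher and 4 lower. Of all tested genes, 12.5% were called higher and 9.03% lower. Alternatives were DESeq2 1.42.0, limma-voom (limma 3.58.1), other scalings, filters and count estimates, a replicate block and each library left out.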

Additional observations from a re-analysis of the deposited data

How the results depend on the processing

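Of 159 refitted fold changes of the 10 genes, 149 kept their direction and side of the threshold; Cx3cl1, Cxcl5, Cxcl14 and Ccl7 kept theirs in all 16 alternatives each. The number of the 10 genes called lower was 2 in place of 1 without a filter, with DESeq2 and with the replicate block, the second gene being Cxcl12 (log2 fold change -0.40 with the block, adjusted p = 0.0109). The replicate numbers are only names here, and 5 of the 6 libraries correlated best with the library of their own number. The block gave 3218 called genes, against 3302 without it. With each library left out, 1 to 2 of the 10 genes were called lower and 3 to 4 higher, and 823 to 1143 genes in all were called lower, with 823 without ctrl replicate 3 and 864 without caNrf2 replicate 2, against 1385. The log2 fold change was then between -0.27 and 0.003 for Ccl2, between -0.281 and 0.082 for Ccl11 and between -0.004 and 0.32 for Cxcr2. A stricter filter, which tested fewer genes, called 2 other chemokine system genes higher in place of 7. Ackr3 was called higher without a filter, with DESeq2 and with the block (log2 fold change 0.33, 0.34 and 0.34), and Ccr1 without ctrl replicate 2 (2.07). Posterior mean TPM kept the order of the 10 genes in both groups but moved 7 of the 20 levels by over 1 SD, at 0.883 to 1.71 times the TPM used, with the highest ratio for Cxcl10 in caNrf2 (0.69 against 0.403 TPM). With 5 to 19 counts per library for Cxcl10 and 36 to 96 for Ccl8, depth limits what can be said of these 2 genes. The causes of these shifts were not tested.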
